A study of Bos taurus with 36 samples.

Results

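Liver tissue taken 12 h after an intra-mammary infusion of lipopolysaccharide (LPS) was compared with liver tissue taken from the same cows at 9 h, the late phase of the hepatic acute phase response. The comparison rests on 4 arrays at 12 h and 4 arrays at 9 h, paired by animal (cows 3329, 4385, 4621 and 4625), out of 36 arrays of 8 cows in the series. The 9 h arrays of the other 4 cows (4589, 4591, 4600 and 8155) were kept as a check. The animals were healthy Holstein-Friesian dairy cows in first lactation. Every cow of the series received 200 μg of E. coli LPS in the right front gland of the udder and saline alone in the left front gland. No cow of the series went without LPS, and the only untreated state is the biopsy at -22 hours. Cows 3329, 4385, 4621 and 4625 had biopsies at 6 hours (at -22 before LPS, and at 3, 6, 9, 12 and 48 after it), and the other 4 cows at -22, 9 and 48 hours. The tissue at 12 h therefore followed 4 earlier biopsies and the tissue at 9 h followed 3. The paper reports that a control study of saline-infused cows found no biopsy effect on clinical measures or on a selected subset of genes. Those control cows were not measured on arrays. In the arrays used here, hours since LPS, number of biopsies and time of day cannot be told apart. Whole tissue was measured, so fewer cells of a type and less RNA per cell cannot be told apart either.

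Levels are log2 intensities on the Affymetrix Bovine Genome Array, where 1 unit is a 2-fold difference. The array medians were 4.22 to 4.31 at 12 h and 4.19 to 4.31 at 9 h, and the mean of the hybridization controls was 10.7 to 11.6 at 12 h and 10.9 to 11.2 at 9 h. The -22 hour array of cow 4621 stood apart with a control mean of 13.4, against at most 11.8 on the other 35 arrays. The 15 hepatocyte markers had a log2 summed level of 18.6 to 18.7 at 12 h and at 9 h alike, and 0 of them were under 5 on all arrays of these hours. A gene was read through its brightest probe set, which gave 9155 genes. A gene was called when the Benjamini-Hochberg adjusted p of the limma fit over all 24128 probe sets was under 0.05. Values of single cows are given in the order 3329, 4385, 4621 and 4625 throughout.

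The liver answers endotoxin in the udder through cytokines carried in the blood and through its own macrophages. Within the first hours it transcribes immediate early transcription factors, chemokines and inhibitors of the signal, then acute phase proteins such as haptoglobin and serum amyloid A, while many genes of bile acid, drug, lipid and amino acid metabolism are turned down. The later hours of such a response are known for the withdrawal of the early genes and the return of metabolic genes.

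Between 9 h and 12 h the liver transcriptome moved widely and in both directions. In all, 4286 of 24128 probe sets were called (17.8%), 2319 higher and 1967 lower at 12 h. Of the 9155 genes, 1317 were higher (14.4%) and 871 were lower (9.51%). All 4 cows moved the same way in 1257 of the higher and 845 of the lower genes. In 601 of the called genes the 4 values at 12 h lay above all 8 values at 9 h, those of the other cows included. In 432 they lay below all 8. Over all 9155 genes, called or not, these counts were 690 and 513. A difference of at least 1 log2 was reached by 323 higher and 216 lower genes, and of at least 2 log2 by 60 and 17. Without cow 3329 the calls fell to 2608 probe sets and without cow 4385 to 2586.

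Among the 12 genes with the largest rises were CYP7A1, CYP1A1, TAT and GLS2, all enzymes of liver metabolism, and the largest rise was read by a probe set of the transcription factor NFATC3. CYP7A1, which catalyses the committed step from cholesterol to bile acids, read 11.45, 7.32, 5.83 and 6.52 at 12 h, against 3.26, 2.64, 3.84 and 2.90 at 9 h. The groups did not overlap, and the difference was 4.62 ± 0.87 log2 (n = 4 cows, adjusted p = 0.00142). Here and below, ± is the SE of the limma fit over the 24 arrays of these cows at all 6 hours. Cow 3329 was far ahead of the other 3 cows on the way to the -22 hour mean of 12.94. CYP1A1, an inducible enzyme of xenobiotic oxidation, read 12.09, 11.01, 10.33 and 11.60 at 12 h, against 7.00, 7.78, 7.47 and 6.90 at 9 h, a rise of 3.97 ± 0.29 (adjusted p = 3.78e-07).

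TAT, which starts tyrosine breakdown, was at 11.59, 10.67, 11.62 and 12.90 at 12 h, against 5.45, 7.89, 9.22 and 10.93 at 9 h, a rise of 3.32 ± 0.70 that was called. Here the cows differed by over 5 log2 at 9 h and by about 2 at 12 h, and the lowest value at 12 h lay under the highest at 9 h. GLS2, the liver glutaminase, read 9.26, 8.75, 8.43 and 8.62 at 12 h, against 5.00, 5.13, 5.81 and 5.46 at 9 h (3.42 ± 0.27, adjusted p = 6.66e-07). PPM1K, the phosphatase that activates the branched-chain keto acid dehydrogenase, read 9.60, 9.50, 8.14 and 7.97 at 12 h, against 4.82, 5.16, 5.43 and 3.21 at 9 h (4.15 ± 0.40, adjusted p = 5.24e-06). DBT, a core subunit of that dehydrogenase, rose with it, by 2.32 ± 0.19 (adjusted p = 9.05e-07).

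PPP1R3B, which anchors protein phosphatase 1 to glycogen, rose by 3.34 ± 0.27 and had a mean of 7.60 at 12 h against 4.26 at 9 h, still far under its -22 hour mean of 11.13. The desmosomal cadherin DSC2 rose by 3.94 ± 0.39, the tight junction protein CGN by 3.35 ± 0.44, the secreted protein TSKU by 3.47 ± 0.53 and the kinesin adaptor SYBU by 3.11 ± 0.26. UNG, a uracil-DNA glycosylase, ended above its earlier level, with a mean of 8.31 at 12 h, 5.26 at 9 h and 6.85 at -22 hours. Of the other 11, only TAT was also above its -22 hour mean at 12 h. The probe set named NFATC3, a calcium-regulated transcription factor, showed the largest rise of all, with 8.90, 7.90, 7.55 and 7.58 at 12 h, against 3.09, 2.20, 3.03 and 3.06 at 9 h. The other NFATC3 probe set moved by -0.13 (adjusted p = 0.596), so the 5.14 ± 0.23 holds for 1 of 2 probe sets. Among these 12 rises, 11 were of genes that had been lower at 9 h than at -22 hours in the other 4 cows, UNG being the exception.

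**Figure D1:**
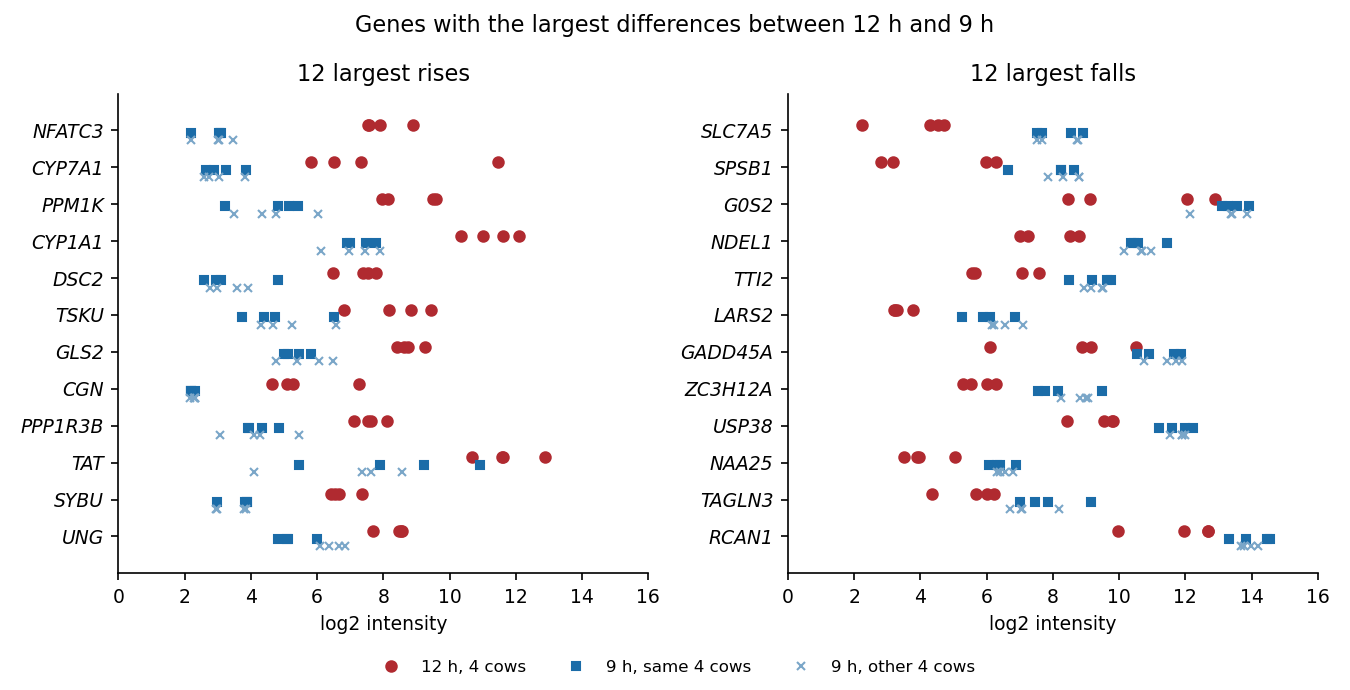
Log2 intensity of the 12 genes with the largest rises (left) and the 12 with the largest falls (right) in the 4 cows at 12 h (circles), in the same cows at 9 h (squares) and in the other 4 cows at 9 h (crosses). For SLC7A5 the 12 h values end at 4.71 and the 9 h values of the same cows start at 7.53, whereas for TAT the 12 h and 9 h values overlap.

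All 12 genes with the largest falls had stood above their -22 hour means at 9 h, and 8 of them were still above at 12 h. SLC7A5, the transporter of large neutral amino acids, read 4.30, 4.53, 4.71 and 2.25 at 12 h, against 7.53, 8.91, 7.66 and 8.55 at 9 h. It fell by 4.22 ± 0.38 log2 (adjusted p = 2.74e-06), and cow 4625 was already close to the -22 hour mean of 1.93. SPSB1, an adaptor of ubiquitin ligases, read 3.18, 5.97, 6.29 and 2.81 at 12 h, against 8.26, 8.63, 8.24 and 6.65 at 9 h. Cows 3329 and 4625 were the lowest for SPSB1 at 12 h, as they were for G0S2, the inhibitor of adipose triglyceride lipase. G0S2 read 9.14, 12.05, 12.90 and 8.45 at 12 h, against 13.11, 13.92, 13.56 and 13.29 at 9 h (-2.84 ± 0.66, adjusted p = 0.00658). The G0S2 call was lost without cow 3329 (adjusted p = 0.084) or cow 4625 (adjusted p = 0.0632). The lipase itself, PNPLA2, went the other way, with 9.09, 9.38, 9.11 and 9.25 at 12 h, against 6.83, 6.79, 7.73 and 7.74 at 9 h (1.94 ± 0.20, adjusted p = 7.95e-06).

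The stress gene GADD45A fell by 2.59 ± 0.44, with 6.11, 8.87, 10.51 and 9.14 at 12 h, against 10.54, 10.90, 11.88 and 11.67 at 9 h. Cow 3329 was lowest here, and the 12 h value of cow 4621 was close to the lowest value at 9 h. NDEL1, a dynein regulator, fell by 2.82 ± 0.30 and TTI2, a cofactor in the maturation of PI3K-related kinases, by 2.80 ± 0.40. The mitochondrial leucyl-tRNA synthetase LARS2 fell by 2.66 ± 0.29 to a mean of 3.38 at 12 h, against 6.03 at 9 h and 2.53 at -22 hours. The remaining falls among the 12 were those of ZC3H12A, USP38, NAA25, TAGLN3 and RCAN1, by 2.22 to 2.46 log2. The 4 that ended below their -22 hour means were SPSB1, G0S2, GADD45A and NAA25, an auxiliary subunit of an N-terminal acetyltransferase, with 4.10 at 12 h against 5.38 at -22 hours.

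To relate the step to the earlier response without sharing an array, the genes changed at 9 h were taken from the other 4 cows, in which 1372 genes (15.0%) were higher and 1403 (15.3%) lower at 9 h than at -22 hours by at least 1 log2. Of the 1372 raised genes, 393 were lower at 12 h than at 9 h (28.6%, against 9.51% of all genes) and 45 were higher. Their median difference was -0.28 log2, against -0.02 for all genes. Of the 1403 lowered genes, 443 were higher at 12 h (31.6%, against 14.4% of all genes), but 167 were lower still (11.9%), with a median of 0.24. Without cow 3329 the 393 became 235, without cow 4625 they became 261 and without cow 4385 they became 258, and the 443 became 295 without cow 4625. Most called genes were not at their -22 hour level at 12 h. Among the 1317 genes higher at 12 h, 521 lay within 0.5 log2 of -22 hours, 358 were still below it and 438 were above it. Among the 871 lower genes, 255 lay within 0.5 log2, 342 were still above and 274 were below.

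Metabolic pathways split between genes that had turned upward and genes that went on falling. Of 19 genes of bile acid synthesis and hepatic transport, 6 were higher at 12 h (31.6%, against 14.4% of all genes). Another 7 were lower (36.8%, against 9.51%), and the median was -0.19. Next to CYP7A1, the peroxisomal racemase AMACR, needed for bile acid side chains, rose by 2.07 ± 0.24 and the organic anion transporter SLC22A7 by 2.51 ± 0.42, with 9.03, 8.86, 8.52 and 10.47 at 12 h, against 7.27, 6.39, 5.52 and 7.66 at 9 h. KLB, the co-receptor of FGF hormones that restrain bile acid synthesis, rose by 2.26 ± 0.51, a call lost without cow 4625 (adjusted p = 0.0862). On the falling side, the bile salt uptake carrier SLC10A1 read 10.86, 10.90, 12.37 and 10.28 at 12 h, against 12.44, 12.30, 12.93 and 12.41 at 9 h and a mean of 14.50 at -22 hours (-1.42 ± 0.26, adjusted p = 0.00122). Without cow 4625, 3 genes of the list were called higher and 5 lower.

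Drug metabolism was the list with the largest share of falling genes, 16 of 42 (38.1%, against 9.51% of all genes). Only 2 were rising (4.76%, against 14.4%). FMO1, a flavin monooxygenase, read 9.05, 9.13, 10.01 and 9.12 at 12 h, against 10.91, 10.86, 11.36 and 11.06 at 9 h, a fall of 1.72 ± 0.13 (adjusted p = 6.22e-07) further away from its -22 hour mean of 13.68. ALDH1A1, the cytosolic retinal dehydrogenase, read 11.98, 11.86, 12.75 and 11.63 at 12 h, against 13.52, 13.80, 13.52 and 13.77 at 9 h (-1.59 ± 0.17, adjusted p = 1.39e-05). CYP2E1, the ethanol-inducible cytochrome, fell by 1.01 ± 0.16. In all 3 genes the highest value at 12 h was that of cow 4621, and in none did the 12 h values overlap with those of the same cows at 9 h. CYP1A1, described above, was one of the 2 rising genes. Its regulator AHR fell by 1.61 ± 0.46, a call lost without cow 3329, 4385 or 4621 (adjusted p = 0.134, 0.0875 and 0.0691).

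**Figure D2:**
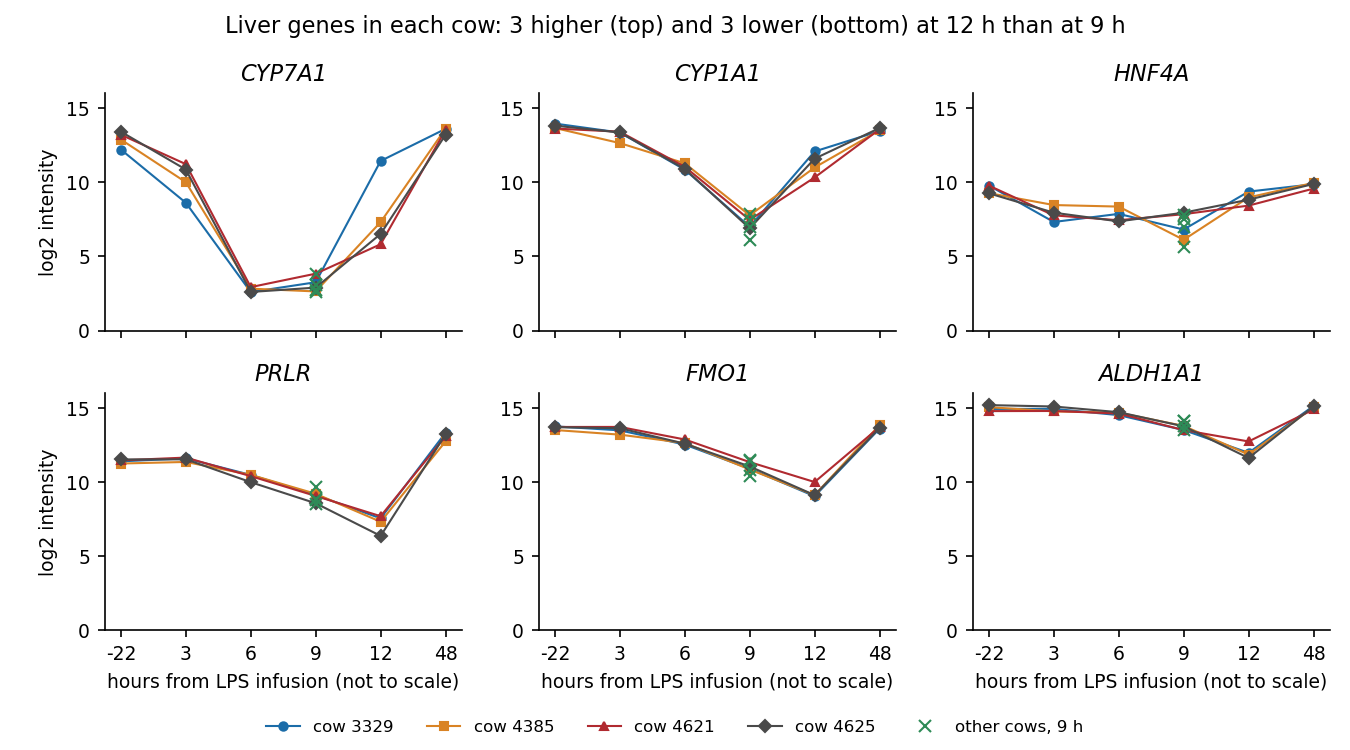
Log2 intensity of 6 liver genes at each hour in cows 3329, 4385, 4621 and 4625 (lines) and in the other 4 cows at 9 h (crosses). CYP7A1, CYP1A1 and HNF4A were higher at 12 h than at 9 h in all 4 cows, whereas PRLR, FMO1 and ALDH1A1 were lower in all 4 and at their lowest sampled hour at 12 h.

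Of 30 genes of fatty acid oxidation and ketogenesis, 9 were lower (30%, against 9.51% of all genes) and 3 higher (10%, against 14.4%). Their median was -0.22. ECI1, an isomerase of unsaturated fatty acid breakdown, fell by 0.91 ± 0.11, and the peroxisomal enzyme HSD17B4 by 0.63 ± 0.09 to a mean of 10.67 at 12 h, against 11.30 at 9 h and 14.02 at -22 hours. The second HSD17B4 probe set did not pass (0.23, adjusted p = 0.703). Without cow 4385 or 4621, 5 genes of the list were called lower, and without cow 3329, 1 was called higher. PPARA, the nuclear receptor that drives fatty acid oxidation, rose by 1.20 ± 0.28, a call lost without cow 3329 (adjusted p = 0.0803), and a second, dim probe set of PPARA moved by -0.08 (adjusted p = 0.4).

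Lipid synthesis leaned the other way, with 7 of 25 genes of lipogenesis and triglyceride synthesis higher (28%, against 14.4% of all genes). In that list 1 gene was lower (4%, against 9.51%), and the median was 0.23. GPAM, which attaches the first acyl chain to glycerol phosphate, read 8.29, 6.39, 7.06 and 7.28 at 12 h, against 5.10, 4.34, 4.97 and 4.16 at 9 h (2.61 ± 0.28, adjusted p = 1.4e-05). AGPAT2, the next acyltransferase, rose by 1.57 ± 0.26. ACLY, which supplies cytosolic acetyl-CoA, rose by 1.31 ± 0.28, a call lost without cow 3329 or 4385 (adjusted p = 0.0517 and 0.0515). Both acyltransferases remained well below their -22 hour means, at 7.25 against 11.00 for GPAM and 6.00 against 8.68 for AGPAT2. Without cow 4385, 4 genes of the list were called higher. The cholesterol synthesis list was near the shares over all genes. Of its 19 genes, 3 were higher (15.8%, against 14.4%) and 2 lower (10.5%, against 9.51%). INSIG1, a brake on the pathway and the brightest member of the list, moved by 0.28 (adjusted p = 0.417).

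Glucose genes showed both patterns. Of 26 genes of glycolysis and glucose uptake, 12 were higher (46.2%, against 14.4% of all genes) and 2 lower (7.69%, against 9.51%). Their median was 0.34. The bifunctional enzyme PFKFB2, which sets the level of fructose 2,6-bisphosphate, read 7.87, 6.52, 6.95 and 6.51 at 12 h, against 5.30, 4.51, 4.68 and 4.38 at 9 h (2.24 ± 0.29, adjusted p = 7.69e-05), and the second PFKFB2 probe set did not pass (0.87, adjusted p = 0.0502). PDK2, an inhibitor of pyruvate dehydrogenase, rose by 2.04 ± 0.20, and GAPDH, the brightest member, by 0.35 (adjusted p = 0.00546). The hepatocyte glucose transporter SLC2A2 was higher in 3 of 4 cows and rose by 1.38 ± 0.36, a call lost without cow 3329, 4621 or 4625 (adjusted p = 0.113, 0.0847 and 0.0756). Without cow 3329 the list had 7 higher genes, and without cow 4385 it had 6.

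Among 25 gluconeogenesis genes, 7 were higher (28%, against 14.4% of all genes) and 4 lower (16%, against 9.51%). PCK1, the first committed enzyme of the pathway, read 11.78, 12.14, 11.85 and 11.60 at 12 h, against 11.33, 10.68, 11.76 and 10.97 at 9 h, a rise of 0.66 ± 0.18 (adjusted p = 0.0148) that left it about 3 log2 under its -22 hour mean of 14.61. The PCK1 call was lost without cow 3329, 4385 or 4625 (adjusted p = 0.077, 0.212 and 0.0573). Its coactivator PPARGC1A, which stood above its -22 hour mean of 7.64 at 9 h, fell by 1.98 ± 0.30, with 8.31, 9.03, 7.82 and 8.13 at 12 h, against 9.48, 10.88, 10.14 and 10.69 at 9 h. G6PC1, the glucose-6-phosphatase, fell by 0.78 ± 0.22, but the call was lost without cow 3329, 4621 or 4625 (adjusted p = 0.0622, 0.0917 and 0.128) and its other probe set moved by 0.37 (adjusted p = 0.413). Without cow 3329, 1 gene of the list was called lower, and without cow 4625, 4 were called higher.

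Of 48 genes of the urea cycle and amino acid breakdown, 12 were higher (25%, against 14.4% of all genes) and 10 lower (20.8%, against 9.51%). The brightest member was the urea cycle enzyme ARG1, at 15.25, 15.32, 14.99 and 15.34 at 12 h, against 14.39, 14.84, 14.62 and 14.86 at 9 h (0.55 ± 0.12, adjusted p = 0.00367). The mitochondrial ornithine carrier SLC25A15 rose by 2.53 ± 0.38. Without cow 3329, 7 genes of the list were called higher, and without cow 4385, 6 were called lower. In the methionine and one-carbon cycle, 2 of 26 genes were higher (7.69%, against 14.4% of all genes) and 9 lower (34.6%, against 9.51%). The 2 were MAT1A, the liver methionine adenosyltransferase, with 10.88, 10.27, 10.00 and 11.01 at 12 h, against 7.19, 7.80, 9.15 and 8.77 at 9 h (2.31 ± 0.30), and BHMT, which remethylates homocysteine from betaine (2.33 ± 0.25). SARDH, which demethylates sarcosine, fell by 1.56 ± 0.33, a call lost without cow 4625 (adjusted p = 0.066). Without cow 4621, 4 genes of that list were called higher.

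Oxidative phosphorylation had 43 of 73 genes higher (58.9%, against 14.4% of all genes) and 0 lower, with a median of 0.34 and medians of 0.32, 0.34, 0.21 and 0.46 in the 4 cows. NDUFA12, a complex I subunit, read 10.89, 11.09, 10.82 and 11.50 at 12 h, against 10.17, 10.23, 10.23 and 10.48 at 9 h (0.80 ± 0.13, adjusted p = 0.000366). The values did not overlap, and they brought NDUFA12 to its -22 hour mean of 11.07. UQCRB of complex III rose by 0.66 ± 0.15 to a mean of 12.91 at 12 h, above both 12.26 at 9 h and 11.48 at -22 hours, while its second probe set moved by -0.04 (adjusted p = 0.916). ATP5F1A, a subunit of ATP synthase and the member with the brightest probe set, rose by 0.43 ± 0.11. The count of 43 became 26 without cow 3329 and 19 without cow 4385.

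Cytosolic ribosomal proteins had 25 of 62 genes higher (40.3%, against 14.4% of all genes) and 0 lower (against 9.51%). The median was 0.19, with 61 of 62 differences above 0. RPS21 read 13.82, 13.77, 13.76 and 14.03 at 12 h, against 13.35, 13.31, 13.47 and 13.55 at 9 h (0.42 ± 0.10, adjusted p = 0.00568). RPS7 rose by the same 0.42 ± 0.09 at its brightest probe set, whereas its 2 dimmer probe sets moved by -0.34 and -0.11 and did not pass. The 25 calls became 14 with each array centred on its brighter probe sets, 11 without cow 4385, 16 without cow 4621 and 12 without cow 4625. The proteasome had 12 of 34 genes higher (35.3%, against 14.4% of all genes) and 0 lower (against 9.51%). PSMD9, an assembly chaperone of the regulatory particle, rose by 1.03 ± 0.15, with 10.99, 10.41, 10.09 and 10.34 at 12 h, against 9.74, 9.38, 9.21 and 9.39 at 9 h. Its 12 calls became 7 without cow 3329, 4385 or 4625.

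Ribosome biogenesis, the making of ribosomes in the nucleolus, moved opposite to the ribosomal proteins. Of 59 genes, 20 were lower (33.9%, against 9.51% of all genes) and 0 higher, with a median of -0.38. NOP2, an rRNA methyltransferase, read 8.81, 9.62, 8.95 and 9.15 at 12 h, against 10.21, 10.51, 10.64 and 10.52 at 9 h (-1.34 ± 0.16, adjusted p = 3.51e-05). BRIX1, an assembly factor of the large subunit, fell by 1.18 ± 0.17 and WDR43, a factor of the small subunit, by 1.09 ± 0.14. All 3 were without overlap between 12 h and 9 h in these cows, and all 3 stayed above their -22 hour means of 7.11, 7.42 and 8.02. Without cow 4625, 12 genes of the list were called lower.

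Among 35 genes of the ATF4 response and the aminoacyl-tRNA synthetases, 10 were lower (28.6%, against 9.51% of all genes) and 0 higher, with SLC7A5 first. SARS1, the cytosolic seryl-tRNA synthetase, fell by 0.77 ± 0.11, with 11.19, 11.58, 11.76 and 10.78 at 12 h, against 11.98, 12.49, 12.21 and 11.71 at 9 h. TARS1, the threonyl-tRNA synthetase and brightest member, fell by 0.59 ± 0.19 (adjusted p = 0.0404). These 10 calls became 5, 4 and 5 without cow 3329, 4385 and 4625. Of 30 heat shock and chaperonin genes, 9 were lower (30%, against 9.51% of all genes) and 0 higher. The 9 became 3, 2 and 3 without cow 3329, 4385 and 4625. AHSA1, the activator of the HSP90 ATPase, fell by 0.90 ± 0.18, and HSP90AA1, the member with the brightest probe set, moved by -0.33 (adjusted p = 0.21). The list of folding in the endoplasmic reticulum did not share this, with 4 of 49 genes lower (8.16%, against 9.51% of all genes), 1 higher and a median of 0.08. SEL1L, a core part of the degradation channel, read 12.53, 11.89, 12.81 and 11.65 at 12 h, against 13.34, 12.91, 13.45 and 13.22 at 9 h (-1.01 ± 0.18, adjusted p = 0.000815). Without cow 4385 or 4625, 2 genes of that list were called lower.

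**Figure D3:**
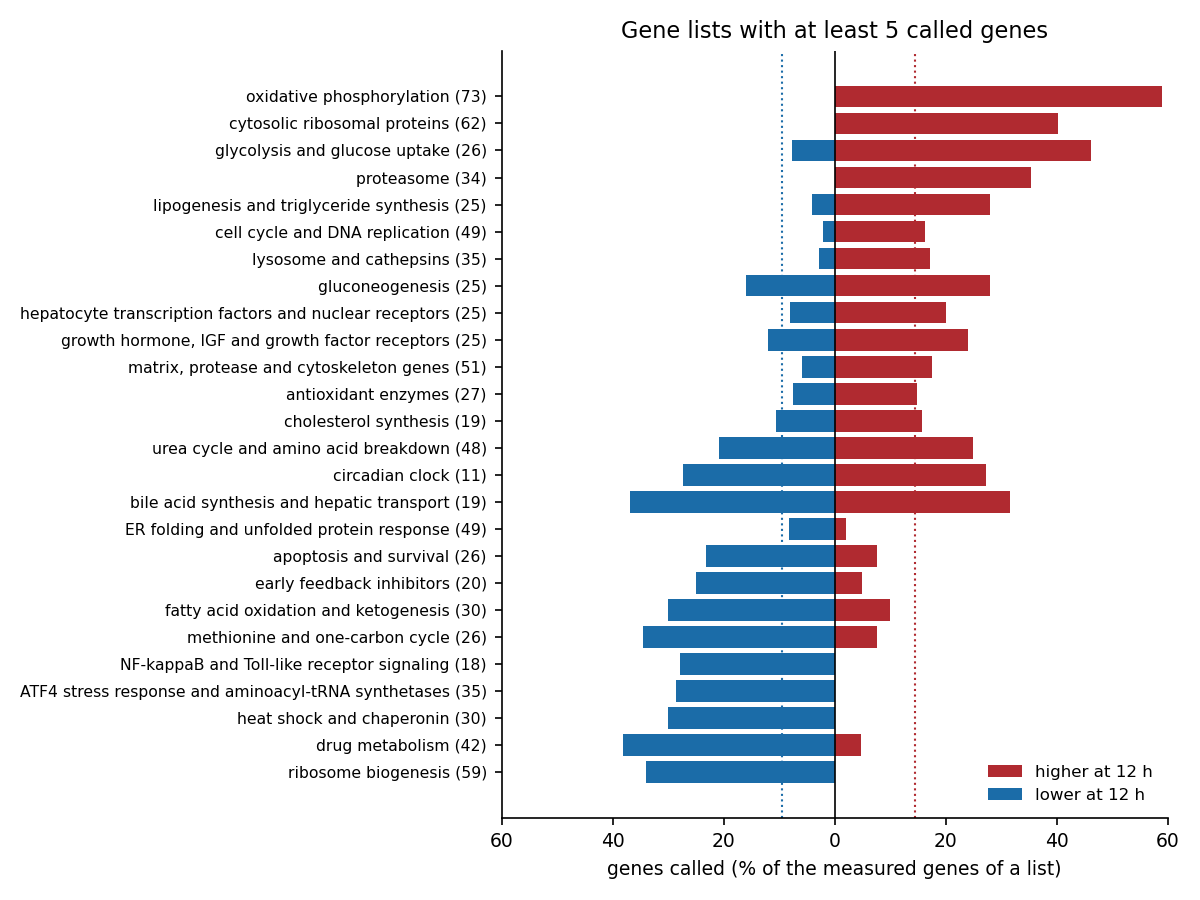
Percent of the measured genes of each list called higher (right) or lower (left) at 12 h than at 9 h, for the lists with at least 5 called genes, with the number of measured genes in brackets. Dotted lines mark the shares over all 9155 genes, 14.4% higher and 9.51% lower; oxidative phosphorylation reached 58.9% higher and drug metabolism 38.1% lower.

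Of 25 hepatocyte transcription factors and nuclear receptors, 5 were higher (20%, against 14.4% of all genes) and 2 lower (8%, against 9.51%). Without cow 3329, 3 were called higher. HNF4A, a master regulator of hepatocyte genes, read 9.38, 8.99, 8.43 and 8.83 at 12 h, against 6.82, 6.13, 7.85 and 7.96 at 9 h (1.72 ± 0.37, adjusted p = 0.00372). Its 12 h mean of 8.91 was close to the -22 hour mean of 9.53, and the call was lost without cow 3329 (adjusted p = 0.0679). CEBPA, which maintains hepatocyte metabolism, read 7.68, 7.59, 7.28 and 7.16 at 12 h, against 5.67, 6.62, 5.55 and 6.43 at 9 h, a rise of 1.36 ± 0.26 (adjusted p = 0.00181) to its -22 hour mean of 7.60. NR5A2, an activator of bile acid genes, fell by 1.15 ± 0.15, and the growth hormone target SOCS2 rose by 2.04 ± 0.26, with 11.73, 11.66, 11.16 and 10.87 at 12 h, against 8.48, 9.32, 9.56 and 9.90 at 9 h. Of 25 genes of growth hormone, IGF and growth factor receptors, 6 were higher (24%, against 14.4% of all genes) and 3 lower (12%, against 9.51%). The prolactin receptor PRLR fell by 1.76 ± 0.19, with 7.56, 7.33, 7.70 and 6.37 at 12 h, against 9.13, 9.22, 9.07 and 8.58 at 9 h. The epidermal growth factor receptor EGFR fell by 1.11 ± 0.19.

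The clock genes were divided, with 3 of 11 higher (27.3%, against 14.4% of all genes). Another 3 were lower (27.3%, against 9.51%), which became 1 without cow 4625. HLF, an output factor of the clock, read 7.53, 8.53, 8.70 and 8.57 at 12 h, against 5.39, 5.79, 6.03 and 6.13 at 9 h (2.50 ± 0.18, adjusted p = 3.13e-07). RORA, an activator in the clock loop, rose by 2.22 ± 0.32 at its brightest probe set, and its 2 dimmer probe sets did not pass (0.69 and 0.70). The repressors moved down, PER2 by 1.66 ± 0.39 and CRY1 by 1.56 ± 0.34, and the CRY1 call was lost without cow 4625 (adjusted p = 0.054). PER2 read 5.96, 5.40, 5.25 and 3.58 at 12 h, against 7.48, 6.69, 6.51 and 6.13 at 9 h, with the lowest value in cow 4625. Of 25 genes of heme, iron and metal handling, 2 were higher (8%, against 14.4% of all genes) and 1 lower (4%, against 9.51%). ALAS1, which starts heme synthesis, rose by 2.31 ± 0.29. Of 26 apoptosis and survival genes, 2 were higher (7.69%, against 14.4% of all genes) and 6 lower (23.1%, against 9.51%). Against that lean, the pro-apoptotic BAX rose at a low level in all 4 cows, to 4.62, 5.18, 4.55 and 4.44 at 12 h, against 2.68, 2.58, 2.61 and 2.63 at 9 h (2.07 ± 0.12, adjusted p = 4.71e-08).

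Of 28 acute phase protein genes, 0 were higher and 2 lower (CD14 and SERPINA6, 7.14%, against 9.51% of all genes), with a median of -0.04. HP, haptoglobin, read 15.91, 15.85, 15.98 and 15.98 at 12 h, against 15.94, 15.93, 16.00 and 16.01 at 9 h, close to the highest value of any probe set, 16.37. SAA3, serum amyloid A 3, read 13.83, 13.29, 13.27 and 15.06 at 12 h, against 13.89, 13.40, 13.24 and 15.00 at 9 h, so the cows kept their order and cow 4625 was the highest at both hours. ORM1 differed by -0.06 (adjusted p = 0.579) and CRP by 0.02 (adjusted p = 0.864), whereas the second, dimmer CRP probe set was higher by 1.09 log2 without passing (adjusted p = 0.0549). SERPINA6, the corticosteroid-binding globulin, fell by 0.48 ± 0.16, a call lost without cow 3329, 4385 or 4621 (adjusted p = 0.0538, 0.201 and 0.17). Of 37 complement and collectin genes 1 was higher and 1 lower (2.7% each, against 14.4% and 9.51% of all genes). These were MASP1, a protease of the lectin pathway (1.23 ± 0.26 at its brightest probe set), and C4BPB, a complement inhibitor subunit, which read 10.21, 10.37, 10.37 and 10.45 at 12 h, against 10.83, 11.03, 10.74 and 11.07 at 9 h (-0.57 ± 0.11).

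Of 18 genes of NF-kappaB and Toll-like receptor signaling, 5 were lower at 12 h (27.8%, against 9.51% of all genes) and 0 higher. MYD88, the adaptor of most Toll-like receptors, read 8.65, 8.50, 8.82 and 7.72 at 12 h, against 9.74, 9.73, 9.57 and 8.68 at 9 h (-1.01 ± 0.20, adjusted p = 0.00196). CD14, the co-receptor of LPS, fell by 0.74 ± 0.11 and the ubiquitin ligase TRAF6 by 0.87 ± 0.17, each at its brightest probe set. The second CD14 probe set moved by -0.10 (adjusted p = 0.633) and the second TRAF6 probe set by -0.10 (adjusted p = 0.702), and neither was called. Outside that list, TNFRSF1A, a TNF receptor, fell by 0.72 ± 0.15 and RIPK1, the kinase below it, by 1.33 ± 0.18. The p65 subunit RELA fell by 0.35 ± 0.11, a call lost when any of the 4 cows was left out (adjusted p = 0.0548, 0.082, 0.135 and 0.127). TLR2 (-0.84, adjusted p = 0.145), IL1RN (-1.06, adjusted p = 0.0744) and STAT3 (-0.45, adjusted p = 0.311) were lower in 4 of 4 cows but did not pass, and the second STAT3 probe set moved by 0.06 (adjusted p = 0.942). Without cow 3329, 4385 or 4625, 3 genes of the list were called lower.

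The early genes were defined as those higher at 3 h than at -22 hours by at least 1 log2 in the same 4 cows, 115 of 9155 (1.26%). The arrays that define them do not enter the 12 h and 9 h values. They do enter the SE and p of the main fit, so the share of calls is not independent of the list. As a group the early genes were lower at 12 h, with 36 called lower (31.3%, against 9.51% of all genes), 1 called higher and a median of -0.58 log2. In 51 of them all 4 cows were lower. RCAN1, an inhibitor of calcineurin, read 9.97, 11.97, 12.68 and 12.69 at 12 h, against 13.33, 14.55, 13.84 and 14.47 at 9 h (-2.22 ± 0.33, adjusted p = 0.00025). ZC3H12A, an RNase that degrades cytokine transcripts, read 5.53, 6.28, 6.01 and 5.29 at 12 h, against 7.55, 9.47, 7.75 and 8.15 at 9 h (-2.46 ± 0.24, adjusted p = 5.9e-06). The deubiquitinase USP38 fell by 2.36 ± 0.26, and the Hippo scaffold SAV1 by 1.77 ± 0.22. The scramblase PLSCR4 fell by 1.73 ± 0.23. The organic anion transporter SLCO4A1 fell by 2.02 ± 0.47, a call lost without cow 4625 (adjusted p = 0.0502). Without cow 3329, 4385 or 4625 the 36 calls became 18, 17 or 20.

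Beneath this common fall the cows differed, and some early genes were higher again at 12 h in cow 4621 and cow 4385. By at least 1 log2, 7, 12, 19 and 0 of the 115 early genes were higher at 12 h than at 9 h in cows 3329, 4385, 4621 and 4625, which is 6.09%, 10.4%, 16.5% and 0%. Over all 9155 genes the same cows had 6.44%, 6.49%, 3.90% and 5.31%. By at least 1 log2, 54, 35, 15 and 39 early genes were lower. The medians of the 115 differences were -0.84, -0.54, -0.06 and -0.74, so the early genes of cow 4621 were on balance level between 9 h and 12 h. The median early gene of cow 4621 read 9.61 at 12 h, against 9.59 at 9 h, while that of cow 4625 read 7.62 at 12 h, against 8.48 at 9 h. Each cow has 1 array per hour, so the differences between cows were not tested. The list defined without cow 4621 held 44 genes, of which 11 were higher by 1 log2 in that cow.

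**Figure D4:**
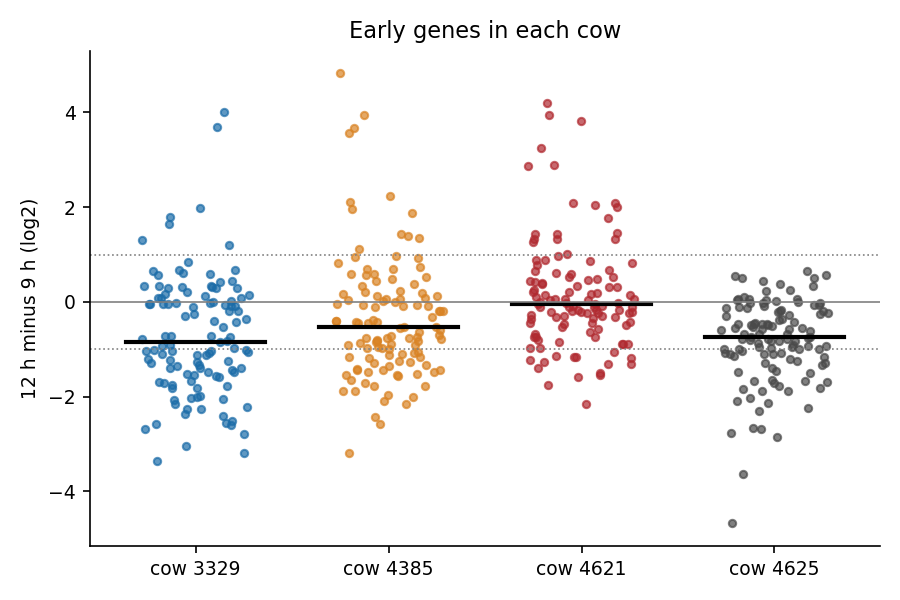
Difference between 12 h and 9 h (log2) of each of the 115 early genes (points) in the 4 cows, with the median as a bar and dotted lines at 1 and -1. The median of cow 4621 lies at -0.06 with 19 genes above 1, and cow 4625 has 0 genes above 1.

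In total 22 early genes were higher by 1 log2 in at least 1 cow, 11 in 2 or more cows and 5 in 3 cows, so the other 11 were higher in a single cow. Of the 12 of cow 4385, 10 were also among the 19 of cow 4621 (83.3% and 52.6% of each list), and 8 were found in cow 4621 alone. CXCL8, which attracts neutrophils, read 6.40, 8.31, 10.36 and 3.37 at 12 h, against 2.70, 4.65, 6.55 and 3.30 at 9 h. The 3 cows 3329, 4385 and 4621 were higher by 3.70, 3.66 and 3.81 log2, and cow 4625 by 0.07. The CXCL8 difference of 2.81 ± 0.97 did not pass with all 4 cows (adjusted p = 0.0562) and passed without cow 4625 (adjusted p = 0.00913).

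PTGS2, the inducible cyclooxygenase, read 5.14, 8.05, 9.87 and 2.82 at 12 h, against 3.34, 4.50, 5.93 and 2.85 at 9 h. In cow 4621 it stood above its 3 h level at 12 h, and in cow 4625 it was at the -22 hour level at both hours. The PTGS2 difference was 2.32 ± 0.85 (adjusted p = 0.0748, and 0.0182 without cow 4625). ADAMTS4, a protease of the matrix, was the only early gene called higher, with 6.19, 7.43, 8.45 and 2.19 at 12 h, against 2.18, 2.60, 5.56 and 2.78 at 9 h (2.79 ± 0.88, adjusted p = 0.0378). That call was lost without cow 3329, 4385 or 4621 (adjusted p = 0.218, 0.31 and 0.0827). Without cow 4625, 5 early genes were called higher.

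CCL2, the monocyte chemoattractant, read 8.43, 10.12, 12.19 and 4.46 at 12 h, against 6.77, 8.24, 7.98 and 6.78 at 9 h. The value of 12.19 in cow 4621 was above all its earlier hours, whereas CCL2 in cow 4625 went down by 2.31 log2 (1.35 ± 0.86 over the 4 cows, adjusted p = 0.314, and 0.029 without cow 4625). OLR1, a scavenger receptor of activated endothelium and macrophages, was the most divided early gene, with 6.89, 9.10, 11.57 and 2.88 at 12 h, against 5.58, 7.74, 8.71 and 7.55 at 9 h. It was higher by 2.86 log2 in cow 4621 and lower by 4.67 in cow 4625. The transcription factor EGR1 read 7.54, 9.26, 10.66 and 3.17 at 12 h, against 6.98, 8.56, 9.23 and 6.81 at 9 h, and FOS read 7.33, 10.28, 11.46 and 5.62 at 12 h, against 9.84, 10.20, 9.36 and 8.40 at 9 h. For FOS, cow 4621 alone was clearly higher, by 2.10 log2, and cows 3329 and 4625 were lower by over 2 log2. Neither OLR1 (adjusted p = 0.902), EGR1 (adjusted p = 0.872) nor FOS (adjusted p = 0.505) passed.

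The other early genes higher by 1 log2 in at least 1 cow ranged from near the bottom of the scale to high levels. KLF10, a transcription factor, read 10.24, 11.07, 11.72 and 10.55 at 12 h, against 10.26, 10.37, 10.45 and 10.92 at 9 h, and S100A9, a calcium-binding protein of neutrophils and monocytes, read 9.63, 11.29, 11.62 and 9.56 at 12 h, against 8.96, 10.35, 10.30 and 9.80 at 9 h. Both were higher by 1 log2 in cow 4621 alone. The secreted protein CRISPLD2 was higher by 1.45 log2 in cow 4621 and 1.96 in cow 4385, and SLC1A5, a glutamine transporter, by 1.34 and 1.44. The lymphocyte activation marker CD69 read 3.34, 7.18, 7.43 and 2.88 at 12 h, against 3.38, 3.24, 5.39 and 3.08 at 9 h, so cows 4385 and 4621 were higher and the other 2 were near the bottom of the scale. RUBCNL, a regulator of autophagy, followed the same cows, at 3.57, 6.57, 7.73 and 2.90 at 12 h, against 3.28, 4.45, 5.72 and 3.36 at 9 h. IL1A, interleukin 1 alpha, read 2.55, 3.28, 6.07 and 2.67 at 12 h, against 2.59, 2.70, 2.81 and 2.64 at 9 h, a second rise in cow 4621 that did not reach the 3 h level. CCL20 read 3.93, 2.08, 3.99 and 1.91 at 12 h, against 1.95, 1.95, 2.22 and 1.97 at 9 h.

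**Figure D5:**
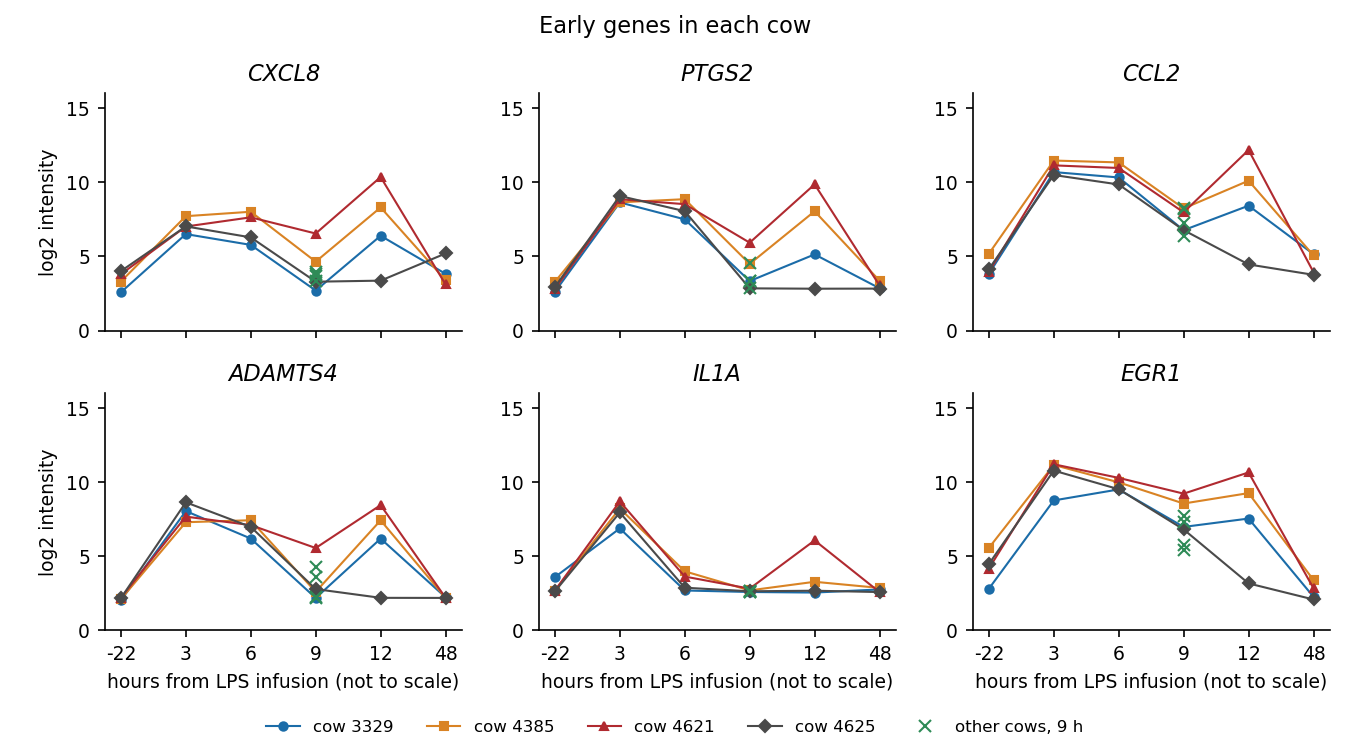
Log2 intensity of 6 early genes at each hour in cows 3329, 4385, 4621 and 4625 (lines) and in the other 4 cows at 9 h (crosses). CXCL8, PTGS2, CCL2, ADAMTS4 and EGR1 were higher at 12 h than at 9 h in cows 3329, 4385 and 4621 and not in cow 4625 (CXCL8 there differed by 0.07), and IL1A was clearly higher in cow 4621.

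The same cows were high for a few genes outside the early list. IL6 read 2.54, 2.61, 6.56 and 2.63 at 12 h, against 2.60, 2.66, 2.71 and 2.73 at 9 h, so only cow 4621 left the bottom of the scale. CXCL5, another neutrophil chemokine, read 4.25, 7.12, 9.35 and 4.10 at 12 h, against 2.93, 3.02, 4.13 and 3.42 at 9 h (2.83 ± 0.85, adjusted p = 0.0278), a call lost without cow 4385 (adjusted p = 0.228) or cow 4621 (adjusted p = 0.11). The glucose transporter SLC2A3 read 2.91, 7.11, 8.93 and 2.12 at 12 h, against 2.12, 3.31, 2.63 and 2.18 at 9 h (2.71 ± 0.90, adjusted p = 0.0469), and this call was lost without cow 3329, 4385 or 4621 (adjusted p = 0.0813, 0.26 and 0.283). Other inflammatory genes were mixed. Probe sets of the chemokine GRO1 other than its brightest rose by 2.81, 2.82 and 2.91 log2 (adjusted p = 0.0971, 0.0101 and 0.00749). Their mean levels over all arrays were 5.65, 4.16 and 4.09, so the calls rest on the dimmest of them. The brightest probe set, through which a gene is otherwise read here, is not given for GRO1. The early chemokine CCL4 differed by 0.44, 1.11, 0.59 and -2.09 log2 in the 4 cows, and CCL3 by 0.34, 0.75, 0.16 and -0.98. Neither CCL4 nor CCL3 was called. The following genes did not rise with them. IL1B was lower in all 4 cows, by 0.73 ± 0.23 (adjusted p = 0.0342), a call lost without cow 3329, 4385 or 4621 (adjusted p = 0.0882, 0.229 and 0.111), and the second IL1B probe set did not pass (-0.69, adjusted p = 0.233). NFKBIA (-0.57, adjusted p = 0.313) and ICAM1 (-0.71, adjusted p = 0.0948, and 0.0163 without cow 4621) were also lower in all 4, CCL8 differed by -0.57 (adjusted p = 0.442), and TNF stayed between 2.31 and 2.42 on all 8 arrays.

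Markers of other cell types differed between the cows in several ways. The summed linear level of 19 neutrophil markers was higher at 12 h by 0.90, 0.88, 1.01 and 0.04 log2 in the 4 cows, with 12 of the 19 under 5 on all 12 arrays at either hour and 0 called. The log2 of that sum ranged from 13.3 to 14.5 at 12 h and from 12.5 to 13.6 at 9 h in these cows. Bright genes weigh most in that sum, and the 19 markers had a median difference of -0.03 log2, with 7 above and 12 below 0. S100A8 read 12.43, 13.46, 13.59 and 12.36 at 12 h, against 11.58, 12.65, 12.72 and 12.32 at 9 h. The granule genes MPO and ELANE stayed at 2.11 to 2.58, near the bottom of the scale, where they give no reading of neutrophil number. CXCL8, S100A8, S100A9 and S100A12 are in both this list and the early list. The 15 stellate cell and fibroblast markers were higher in sum by 0.29, 0.47, 0.90 and 0.38 log2. Of these markers 6 were called higher (40%, against 14.4% of all genes) and 0 lower. Their median difference was 0.18 log2, with 9 above and 6 below 0, and the median of cow 3329 was -0.02. Among the 6 was ACTA2, smooth muscle actin, at 8.56, 10.29, 9.28 and 9.44 at 12 h, against 7.26, 8.79, 5.70 and 8.21 at 9 h (1.90 ± 0.46, a call lost without cow 3329, adjusted p = 0.0501). Its lowest 9 h value was that of cow 4621. The 10 cholangiocyte markers differed in sum by 0.31, 0.51, 0.90 and 0.22 log2 with 0 called, the endothelial ones by -0.51, -0.33, 0.26 and -0.06, and the hepatocyte ones by -0.04 to 0.01. The part of these cells in the early gene values was not tested. Without cow 4385 or 4625, 2 stellate markers were called higher, and without cow 4621, 3.

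At 9 h the cows with 3 earlier biopsies could be set against the other 4 cows with 1. Between them 0 of 24128 probe sets (0%) were called by limma, with 1325 at an unadjusted p under 0.05. The genes higher at 12 h had a median difference of -0.04 in that check and the genes lower at 12 h one of 0.01. With the 9 h arrays of the other cows in place of the paired ones, 3833 probe sets were called between 12 h and 9 h.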

How the data were processed

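RNA of liver biopsies was hybridised to Affymetrix Bovine Genome Arrays, 1 array per cow and hour. The deposited values are log2 intensities that the authors normalized with GCRMA (background correction from probe sequence, then quantile normalization), which makes array distributions alike and can hide a shift of all genes. They range from 0.69 to 16.37 and number 24128 probe sets on 36 arrays, and the number of arrays limits the precision. Of the probe sets, 13292 name 1 gene, 86 name several and 10724 were not in the annotation table used here. A gene was read through its brightest probe set, and 1266 of 1632 list symbols matched.

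The main fit (limma 3.58.1, R 4.3.3) used the 24 arrays of the 4 cows with all 6 hours, with hour and cow as terms, so the difference of 12 h and 9 h is the mean of 4 differences within cows. SE and p come from that fit, whose residual spread is pooled over all 6 hours (15 residual degrees of freedom). They can therefore understate how far the 12 h minus 9 h differences varied between the cows. For OLR1 the SE was 1.05, while the 4 differences had an SD of 3.34. Benjamini-Hochberg adjustment ran over all probe sets. The cow identity in the labels pairs the arrays (the replicate number in the titles does not). At 9 h and 12 h, deviations from the hour means correlated at 0.523 to 0.65 within a cow (11110 probe sets). The deviations of the 4 cows sum to 0 at each hour. The average of -0.191 between cows is therefore largely fixed by the values within cows and adds no evidence. The fit was tested on simulated data.

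Named genes were the 12 largest rises and 12 largest falls (called, same direction in 4 of 4 cows, mean of at least 5), up to 4 called members of a list and its brightest gene (at 9 h and 12 h), the early genes with the 6 largest differences each way and the 6 largest spreads between cows, and genes the paper names. SLC10A1, CYP2E1, MPO, ELANE, S100A8, S100A9, S100A12, KLF10, CRISPLD2 and SLC1A5 were chosen after their values were seen. The lists and the early definition were chosen with earlier results of these data known. Alternatives covered the block, arrays, centring, dim probe sets, array weights, variance prior, thresholds and leaving out each cow.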

Additional observations from a re-analysis of the deposited data

Results flagged for a closer look

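In each of 65 results the 4 within-cow differences were searched for 1 cow far from the other 3 by Dixon's criterion. Chance alone gives such a cow in about 1 of 20 groups. That rate does not hold for genes picked for a large spread between the cows, EGR1 among them. The search found 6. CXCL8 had a difference of 0.071 in cow 4625, against 3.66 to 3.81 in the other cows (ratio 0.96), and EGR1 had -3.642 in cow 4625, against 0.57 to 1.43 in the others. SYBU had 4.386 in cow 3329, against 2.55 to 2.84 in the others. The matrix, protease and cytoskeleton list had a median of 0.31 in cow 4621 (ratio 0.901), against -0.04 to -0.01 in the others. The urea cycle and amino acid breakdown list had a median of 0.174 in cow 3329 (ratio 0.848), and the apoptosis and survival list one of -0.174 in cow 4385.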

How the results depend on the processing

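The direction of the 4286 called probe sets held in every alternative fit that kept the 9 h arrays of these cows. With dim probe sets left out, 3903 of them were tested. Without the block, in the 8 arrays alone, or with another variance prior, dim filter or threshold, the difference is the same mean by design. Its direction could not change there. Of the 4286, 2274 (53.1%) were also called in the 8 arrays at 9 and 12 h, and 2443 (57%) without cow 3329. With the 9 h arrays of the other cows 4246 kept their direction, and F13A1 turned to -0.02. With cow as a replicate block over only the 8 arrays at 9 and 12 h, 2838 were called (1504 higher), with Bonferroni below 0.01 227 (144 higher, 83 lower) and with at least 1 log2 in addition 1317 (708 and 609). Without the block the 24 arrays gave 3270, and the other fits gave 3833 to 6156. Leaving out a cow gave 2586 to 3575 calls (1350 to 2045 higher, 1201 to 1530 lower), 17 to 32 early genes lower and 0 to 5 higher, 235 to 328 of the raised genes lower and 295 to 402 of the lowered genes higher. Fewer cows and arrays entered those fits. With a 2 log2 minimum those lists gave 171 (of 486) lower and 197 (of 524) higher. Defined by Bonferroni below 0.01, 2 early genes were left, with 1 called lower, 0 higher and 0 up by 1 log2 in cows 3329, 4385, 4621 and 4625. With a 2 log2 minimum 14 of 71 early genes were lower. Centred arrays gave 201 early genes, 60 lower and 6 higher, with 13, 19 and 5 up in cows 3329, 4385 and 4625. All annotated probe sets gave 3 called higher and 11, 31 and 1 up in cows 3329, 4621 and 4625. The list without cow 4621, and the fit without its -22 hour array (4640 calls), were chosen after seeing the data. That list gave 11 of 44 lower and 4 and 11 up in cows 3329 and 4621. A rise of 0.5 log2 was met by 14, 23, 31 and 4. The share of higher calls was 50.5% with centred arrays and 54.1% without, and the cause of these changes was not tested.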
